A study of Rattus norvegicus with 24 samples.

Results

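The left and right carotid bodies (CBs) of the same rat were compared across 11 rats, with each rat as its own control and 1 side difference shared by both strains. The comparison used 22 of the 24 libraries, the left and the right CB of every rat with both sides usable. These were 6 rats of the normotensive Wistar-Kyoto strain (WKY/NHsd) and 5 spontaneously hypertensive rats (SHR/NHsd), all male and labelled as 12 to 14 weeks old. Each rat was perfused with ice-cold PBS after death and each CB was snap-frozen, and no rat carried a transgene or received a treatment that the labels name. Both libraries of SHR rat 34 were left out, which leaves 11 of 12 rats.

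The CBs sit where each common carotid artery divides and sense oxygen, carbon dioxide, pH and glucose in arterial blood. Their glomus cells are neurosecretory cells that release transmitters from dense-core granules onto carotid sinus nerve endings, and sustentacular cells, dense capillaries, arterioles and connective tissue surround them. The organ is small and is dissected away from the vessel wall, adipose tissue and the nearby thyroid gland. In RNA from a whole organ, fewer cells of a type and less RNA per cell cannot be told apart.

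Polyadenylated RNA was sequenced one library per CB, and the deposited values were raw counts per rat Ensembl gene. Over the 11 rats, left libraries held 9473692 to 12503650 counts (median 9795388) and right libraries 9334257 to 13655419 (median 9841817). The left library was the deeper of the pair in 5 of 11 rats, and the exact sign-flip test over rats, two-sided, gave p = 0.937. Left libraries had 17356.5 genes with a count on average and right libraries 17617 (difference -260 ± 566, SD, n = 11; exact sign-flip p = 0.154). In the omitted SHR rat 34, the right library had 7983 CPM (counts scaled to a common library size with TMM factors) of Tg, thyroglobulin, the hormone precursor of the thyroid, against 2.42 in the left. That library had 3.90 CPM of Chgb, chromogranin B of the secretory granule, against 825 CPM in its partner, so it went against its tissue label. Every library of the 11 rats had Chgb at 429 CPM or more.

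No gene passed an adjusted p of 0.05 between sides in edgeR's quasi-likelihood test of 14254 genes, which is 0% of genes tested. The lowest adjusted p was 0.717. At an unadjusted p under 0.05, edgeR had 951 genes (6.67%), of which 409 were higher in the left CB (2.87%) and 542 lower (3.8%). limma voom called 0 genes and had 973 at an unadjusted p under 0.05. DESeq2 called 1 gene, Cnn1 (adjusted p = 0.0182), and had 830 (5.82%) at an unadjusted p under 0.05.

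The side differences were small for most genes. The median size of the log2 fold change was 0.06, and 48.1% of genes had a lower estimate in the left CB. The 95% interval of the side difference lay within 1.25-fold for 9816 genes (68.9%), within 1.5-fold for 12568 (88.2%) and within 2-fold for 13899 (97.5%). The interval lay wholly beyond 2-fold for 0 genes and wholly beyond 1.5-fold for 2, both higher in the left CB of 10 of 11 rats and both without a symbol. These were ENSRNOG00000018808 (log2 fold change 2.23, 95% interval 0.73 to 3.73; mean 10.1 CPM left and 2.98 CPM right) and ENSRNOG00000062141 (1.22, 0.60 to 1.84; 2.28 and 1.10 CPM). Both were picked out after their values were seen, and edgeR's adjusted p was 0.721 for the first and 0.717 for the second. The level was higher in the left CB of all 11 rats for 7 genes and lower in all 11 for 10, and none of the 17 had a symbol.

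Of the summed variance of log2 CPM over all genes and 22 libraries, 25% lay between strains, 37.7% between rats of one strain and 3.55% between sides. The side by strain term held 3.03%, and 30.7% was left as the residual, over 9 degrees of freedom. Per degree of freedom, the side term was 1.04 times the residual, the rat term 1.23 times and the strain term 7.33 times. These shares are a description, since noisy genes of low level weigh most in them. On the first principal component (26.2% of variance) the left library lay to one side of its partner in 6 of 11 rats. The second (10.2%) gave 7 of 11. Of the first 6 components, the fourth (6.21%) had the highest such count, 9 of 11, and was picked out for that.

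The named gene of lowest p was Cnn1, calponin 1, an actin-binding protein of differentiated smooth muscle. Its left CB levels ran from 1.74 to 10.7 CPM (median 6.46) and its right CB levels from 3.92 to 16.9 CPM (median 8.36). The left CB was the lower side in 10 of 11 rats, all but WKY rat 41, and the ranges of the sides overlapped. The log2 fold change, left minus right, was -0.81 (95% interval -1.15 to -0.47), a left level 0.571 times the right. The exact sign-flip test of its 11 differences gave p = 0.00391, where the smallest p the design allows is 0.000977. edgeR's adjusted p was 0.717, so only DESeq2 called it. With both libraries of SHR rats 30 and 37 left out, the edgeR log2 fold change was -0.79.

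Among the other named genes lower in the left CB by the rule of lowest p, Slit3 encodes a secreted guidance ligand for Robo receptors. It had 56.8 to 119 CPM (median 87.7) in left and 78.8 to 133 CPM (median 115) in right CBs, and was lower in the left of 9 of 11 rats. Its log2 fold change was -0.26 (95% interval -0.38 to -0.13; exact sign-flip p = 0.00391; edgeR adjusted p = 0.717). Hmcn1, hemicentin 1 of the extracellular matrix, had a median of 74.5 CPM in left and 87.8 CPM in right CBs and a log2 fold change of -0.22 (-0.35 to -0.10), and was lower in the left of 9 of 11. Tln2, talin 2, which links integrins to actin, had medians of 90.2 and 100.1 CPM and a log2 fold change of -0.28 (-0.45 to -0.12), with the left lower in 8 of 11. Ankle1, an endonuclease gene with 2 to 35 counts per library, had a log2 fold change of -1.13 (-1.76 to -0.50). None of these genes passed the adjusted threshold in any of the 3 tools.

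Of the named genes higher in the left CB, Tac3, which encodes a tachykinin neuropeptide, had 11.5 to 146 CPM (median 48.8) in left and 11.4 to 131 CPM (median 25.7) in right CBs. The left level was the higher in 10 of 11 rats, all but WKY rat 33, although the levels of different rats spread much wider than the sides. The log2 fold change was 0.42 (95% interval 0.15 to 0.69; exact sign-flip p = 0.00977; edgeR adjusted p = 0.721). Nxph4, neurexophilin 4, a ligand of alpha-neurexins, had 16.2 to 35.5 CPM (median 26.4) in left and 11.7 to 27.7 CPM (median 22.5) in right CBs. It was higher in the left of all 6 WKY rats and of 4 of 5 SHR, with a log2 fold change of 0.26 (0.10 to 0.41; exact sign-flip p = 0.00684; edgeR adjusted p = 0.721). Chgb had a log2 fold change of 0.16 (0.03 to 0.30) and was higher in the left of 9 of 11 rats. S100a5, a calcium-binding protein gene, and RGD1564171 had log2 fold changes of 0.56 and 0.24, each with the left higher in 9 of 11. The sign-flip tests of single genes were not adjusted for the number of genes named. These genes were picked for the lowest side p among 1273 genes with a symbol, in the same 11 rats. Their low sign-flip p-values follow from that choice and add no support to it.

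**Figure D1:**
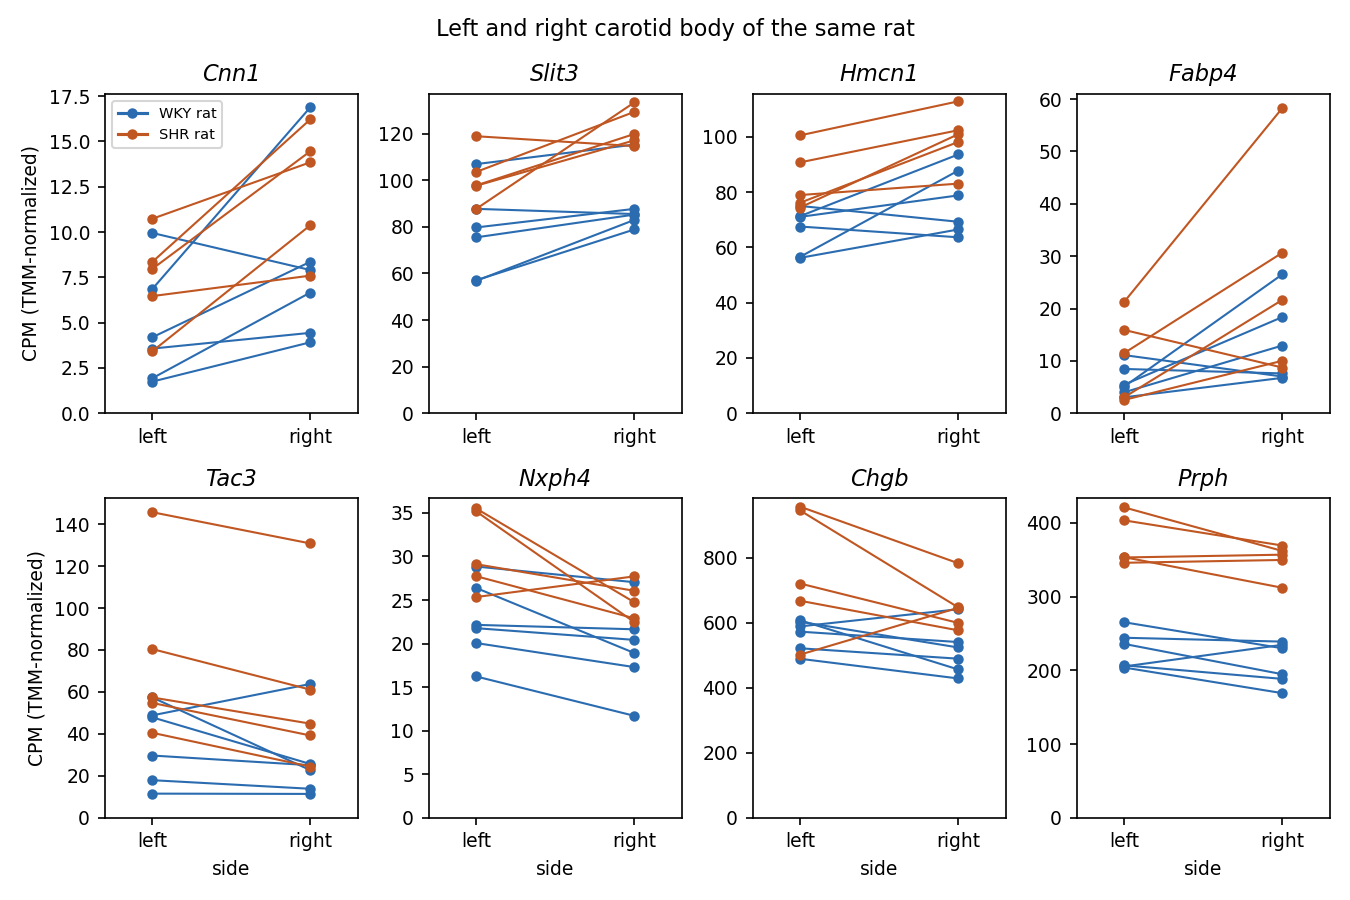
Each line joins the left and right CB of 1 rat, with TMM-normalized CPM on the vertical axis from 0 (blue, 6 WKY rats; orange, 5 SHR). Cnn1 was lower in the left CB of 10 of 11 rats and Tac3 higher in 10 of 11, while the ranges of left and right overlapped for all 8 genes.

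Smooth muscle genes leaned to the right CB. All 11 members tested had a lower estimate in the left CB, against 48.1% of all genes, with a median log2 fold change of -0.17 against 0.00 over all genes. The lists were drawn from the 1273 genes with a symbol, with earlier results of these data known. The share lower in the left among those genes is not given here. None passed the adjusted threshold, and 3 of the 11 had an unadjusted p under 0.05, with a background of 3.8% for lower genes. These were Cnn1, Tpm2, a tropomyosin (log2 fold change -0.17, 95% interval -0.31 to -0.03), and Rergl, a Ras-like gene (-1.07, -1.99 to -0.15). Acta2, smooth muscle alpha-actin, averaged 288 CPM left and 349 CPM right (-0.28, -0.58 to 0.02), and Tagln, transgelin, 273 and 326 CPM (-0.27, -0.57 to 0.03). Genes of one tissue vary together, so the 11 members are not 11 separate observations. Summed over the list, the left CBs had 424 to 1271 CPM (median 841) and the right 589 to 1636 CPM (median 926), and the left sum was the lower in 9 of 11 rats. WKY rats 33 and 41 went the other way, and the mean log2 ratio was -0.23 ± 0.39 (SD, n = 11).

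Glomus cell and transmitter genes had the opposite lean. Of 18 members, 13 had a higher estimate in the left CB, and 2 had an unadjusted p under 0.05, Tac3 and Chgb, with a background of 2.87% for higher genes. Chga, chromogranin A, averaged 711 CPM left and 652 CPM right (log2 fold change 0.13, 95% interval -0.004 to 0.26). Dbh, dopamine beta-hydroxylase, which makes noradrenaline, had a log2 fold change of 0.17 (-0.09 to 0.44). The summed level of the list was the higher in the left of 9 of 11 rats, with a mean log2 ratio of 0.12 ± 0.21 (SD, n = 11). That sum (median 1581 CPM left, 1550 CPM right) rests mostly on Chga and Chgb, the latter averaging 653 CPM left and 576 CPM right. Chga and Chgb were each higher in the left of 9 of 11 rats, so the sum says little of the other members. In 8 of 11 rats the left CB had both the lower smooth muscle sum and the higher glomus sum. Since CPM are shares of a library, the sums of lists are not independent of each other.

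The libraries also differed in markers of tissue next to the CB. Of 7 adipocyte genes, 6 had a lower estimate in the left CB and 1, Fabp4, the fatty acid-binding protein of fat cells, had an unadjusted p under 0.05. Fabp4 had 2.54 to 21.3 CPM (median 5.45) in left and 6.76 to 58.3 CPM (median 12.9) in right CBs, and was lower in the left of 8 of 11 rats (log2 fold change -1.16, 95% interval -1.97 to -0.35; edgeR adjusted p = 0.721). Adipoq, which encodes adiponectin, a hormone of fat cells, was near 0 in several libraries (0 to 6.98 CPM left, 0 to 3.58 CPM right). The adipocyte sum and the smooth muscle sum moved to the same side in 10 of 11 rats. That adipocyte sum (median 236 CPM left, 258 CPM right) rests mostly on Aoc3, which averaged 151 CPM left and 158 CPM right. Lpl averaged 48.9 CPM on each side, so Fabp4 and Adipoq weigh little in the sum. The thyroid sum of 2 genes, Tg and Duoxa1, ran from 1.86 to 12.8 CPM in left CBs and from 1.69 to 221 CPM in right CBs. Its highest right values were those of SHR rat 30 (221 CPM against 6.91 left) and SHR rat 37 (31.9 against 3.77). Without these 2 rats, the smooth muscle sum was lower in the left of 7 of 9 and the glomus sum higher in 8 of 9. The part of neighbouring tissue in the side differences was not tested beyond that.

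**Figure D2:**
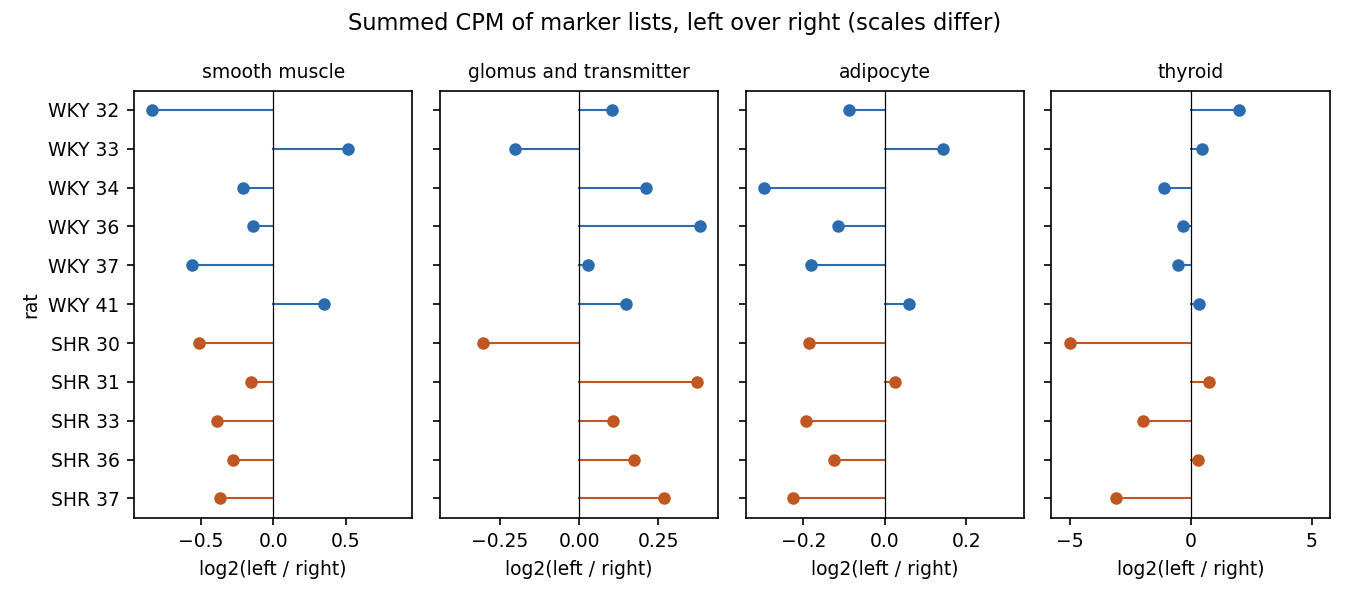
Log2 ratio of left to right for the summed CPM of 4 marker lists in each of 11 rats (rows; blue, WKY; orange, SHR), on a separate horizontal scale for each list. The smooth muscle ratio was below 0 in 9 of 11 rats, the glomus ratio above 0 in 9 of 11, and the thyroid ratio reached -5.00 in SHR rat 30.

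The receptors, for which the CB is studied as a drug target, showed no called side difference. Of 29 receptor genes, 14 had a lower and 15 a higher estimate in the left CB, 0 had an unadjusted p under 0.05, and the 95% interval lay within 1.5-fold for 20. Insr, the insulin receptor, had 34.8 to 79.7 CPM in left and 41.5 to 86.6 CPM in right CBs, with a log2 fold change of -0.03 (-0.14 to 0.07). Sstr1, a somatostatin receptor, had 0.03 (-0.09 to 0.14), and Agtr2, the angiotensin type 2 receptor, -0.03 (-0.31 to 0.25). Gipr, the receptor of the incretin GIP, was higher in the left of 8 of 11 rats, with a log2 fold change of 0.17 (-0.04 to 0.38). Mc4r, the melanocortin 4 receptor, had 0.11 (-0.22 to 0.45).

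Glp1r, the receptor of glucagon-like peptide-1, had 5.84 to 11.7 CPM in left and 7.67 to 16.5 CPM in right CBs of WKY rats, and 0 to 0.954 CPM left and 0.108 to 1.05 CPM right in SHR. The left was lower in 4 of 6 WKY rats, with the widest gap in rat 37 (5.84 against 16.5 CPM), and the SHR values rest on few reads. Its log2 fold change between sides was -0.36 (95% interval -0.87 to 0.16; exact sign-flip p = 0.225), so a left level from 0.546 to 1.12 times the right is within the interval. Hrh3, a histamine receptor, was the receptor of lowest p (-0.36, -0.79 to 0.08).

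**Figure D3:**
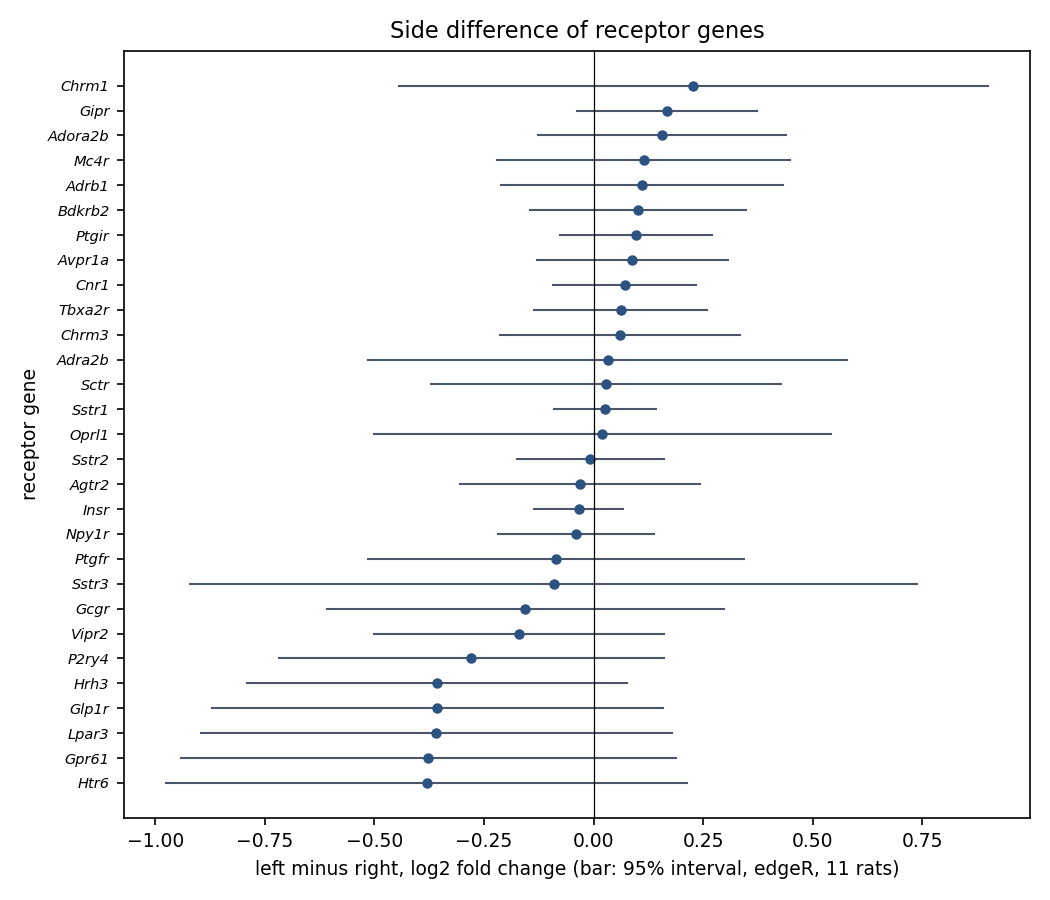
Left minus right log2 fold change of 29 receptor genes (points) with the 95% interval from edgeR (bars, 11 rats), ordered by the estimate. Every interval includes 0, and the interval of Insr (-0.14 to 0.07) is among the narrowest.

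Of 34 ion channel genes tested, 5 had an unadjusted p under 0.05, all lower in the left CB, with a background of 3.8%, and 21 had a 95% interval within 1.5-fold. Trpm4, a calcium-activated cation channel, had 16.4 to 30 CPM (median 24.7) in left and 21.5 to 39.8 CPM (median 27.2) in right CBs, and was lower in the left of 8 of 11 rats (log2 fold change -0.19, 95% interval -0.33 to -0.05). The 3 channel genes of most counts had log2 fold changes of 0.05 for Scn3b, a sodium channel subunit, -0.21 for Ryr2, the ryanodine receptor, and 0.01 for Kcnh2, a potassium channel.

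Transcription factors that pattern the embryo, such as Hox, Tbx and Dlx genes, had no called side difference. Of 24 such genes, 0 had an unadjusted p under 0.05, 15 had a lower and 9 a higher estimate in the left CB, and the 95% interval lay within 1.5-fold for 19. Tbx18 had the lowest p, with a median of 2.40 CPM left and 2.75 CPM right and a log2 fold change of -0.42 (95% interval -0.88 to 0.03), and was lower in the left of all 6 WKY rats and of 3 of 5 SHR. Hoxb2 (-0.01, -0.19 to 0.18) and Dlx5 (0.05, -0.09 to 0.20) were nearly level between sides.

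Other cell types and states showed no called gene and few at an unadjusted p under 0.05. Among macrophage (22 genes), lymphocyte (12), mast cell (4), endothelium (12), striated muscle (9), hypoxia and glycolysis (6) and mitochondrial genome (6) genes there were 0. The fibroblast and matrix list had 2 of 17, both lower in the left CB (background 3.8%), one of them Vcan, the proteoglycan versican (log2 fold change -0.26, 95% interval -0.43 to -0.09, lower in the left of 9 of 11). The neuron and glia list had 1 of 9 (background 2.87% for higher genes), Prph, the neuronal filament peripherin (0.11, 0.02 to 0.21, higher in the left of 8 of 11). Over all 18 lists, 247 members were tested, of which 3 were higher and 11 lower in the left CB at an unadjusted p under 0.05, where all genes tested gave 2.87% higher and 3.8% lower.

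**Figure D4:**
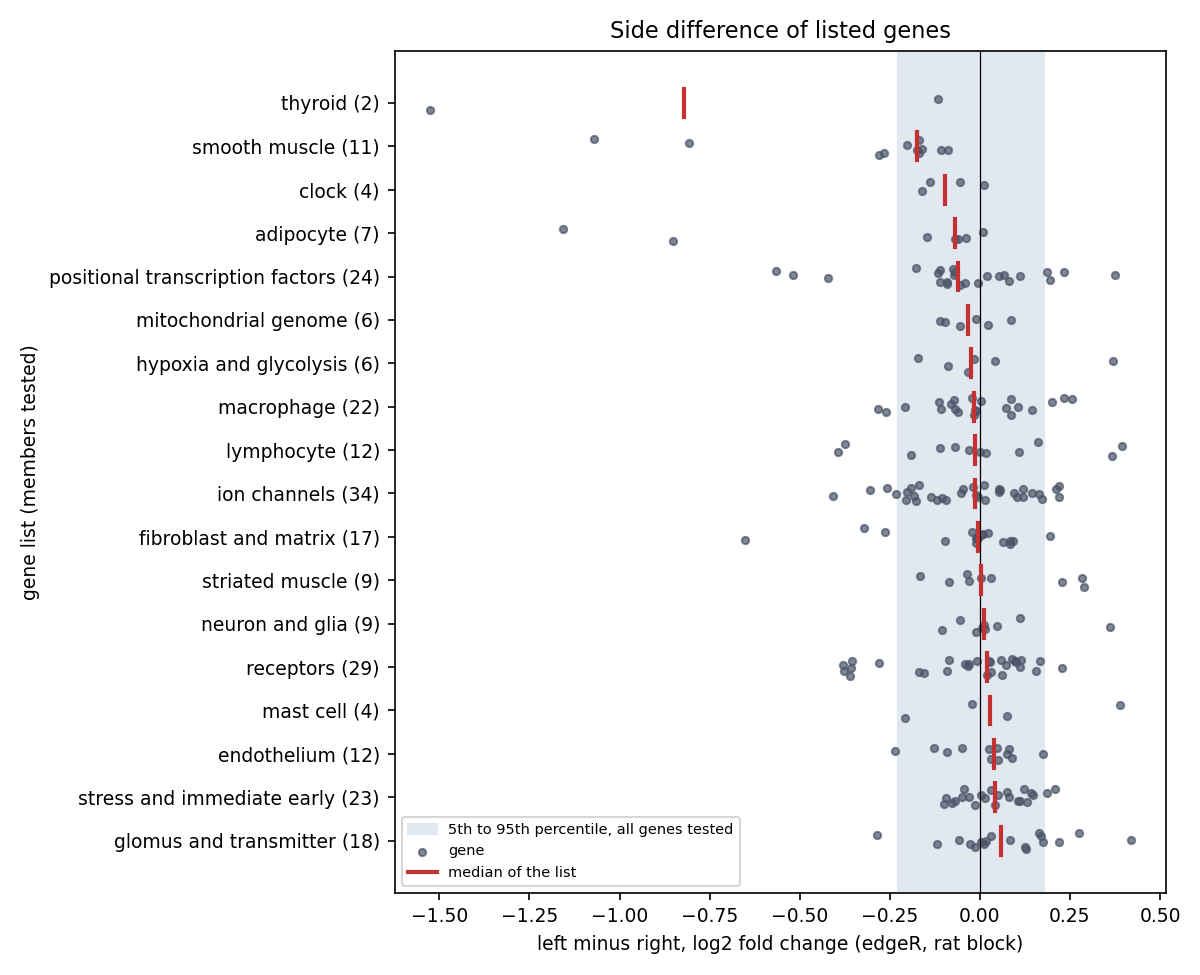
Left minus right log2 fold change of each tested member of 18 gene lists (grey points), with the list's median (red) and the 5th to 95th percentile of all genes tested (shaded, -0.23 to 0.18). All 11 smooth muscle members lie below 0, 13 of 18 glomus members lie above 0, and no point shown is a gene called by edgeR.

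The side difference was tested for a change between strains as well, as an interaction of side and strain. edgeR called 0 of 14254 genes (0%), with a lowest adjusted p of 0.978, and 628 (4.41%) had an unadjusted p under 0.05. DESeq2 and limma voom called 0 genes each, with 461 and 633 at an unadjusted p under 0.05. Cnn1 had a mean log2 difference of -0.83 in WKY and -0.79 in SHR, Slit3 -0.23 and -0.29, and Tac3 0.41 and 0.42.

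More genes were called between rats of one strain, a test of 9 coefficients, than between sides, a test of 1. In the genes called between rats the left and right CB of a rat had like levels, which is what that test selects for. edgeR called 265 genes for a difference between rats within strain (1.86% of genes tested), and 2132 had an unadjusted p under 0.05. The count was 170 without WKY rat 34, and 46 with SHR rat 34 added, whose right library went against its tissue label. Of the 265, 58 had a symbol, against 1273 of all 14254 genes tested. Of the same 265, 27 had an unadjusted p under 0.05 between sides, against 951 (6.67%) of all genes tested. Across rats of one strain, the median correlation of left and right levels over genes was 0.151, with quartiles of -0.08 and 0.374, and 0.765 in the genes called. These correlations are a description over 11 rats, and the last is set by how those genes were called. Over all genes, the right CB most like a left CB was that of the same rat in 3 of 11 rats.

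Genes of the daily clock were among those that followed the rat. All 4 clock genes tested were called between rats (Per2, Ciart, Cry1 and Hlf), and none had an unadjusted p under 0.05 between sides. The background was 1.86% of all genes tested, but 58 of the 1273 genes with a symbol, from which the lists were drawn. Lists and members were chosen with earlier results of these data known, so the count is a description and not a test of clock genes. Cry1 lost its call without WKY rat 32, WKY rat 41 or SHR rat 33 (edgeR adjusted p = 0.0517 to 0.168), and Hlf without WKY rat 34, WKY rat 41, SHR rat 30 or SHR rat 37 (0.0714 to 0.152). Hlf also lost its call with SHR rat 34 added (edgeR adjusted p = 0.165) and without SHR rats 30 and 37 (0.268). Per2, a repressor in the core clock loop, had 19.8 to 139 CPM (median 71.0) in left and 18.8 to 144 CPM (median 72.3) in right CBs. Within WKY its level spanned 7.10-fold between the rats and within SHR 3.90-fold, while the sides of a rat differed by 1.08-fold in the median and 1.49-fold at most. WKY rat 34 was lowest on both sides and WKY rat 41 and SHR rats 33 and 37 were highest on both. Ciart, another repressor of the clock, had the lowest level in the same WKY rat (1.17 and 0.518 CPM) and the highest in WKY rat 41 (31.5 and 34.1 CPM). edgeR's adjusted p for rat within strain was 8.14e-10 for Per2 and 2.27e-09 for Ciart, and its log2 fold change between sides was -0.05 (95% interval -0.18 to 0.07) and 0.01 (-0.22 to 0.24).

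The promoters of Per2 and Ciart are shown because these were the clock genes with a promoter window available. Both were also among the named genes of lowest p between rats. Each window runs from 250 bases before to 50 after the start of the gene, on the minus strand of rat GRCr8 as given by RefSeq, and capitals mark the E-box CACGTG, a clock factor motif that reads the same on both strands. Windows were available for 2 of the 4 clock genes, and not for Cry1 and Hlf. The motif is contained in 6.42% of the 33469 windows in the table.
Ciart, chr2:186112197-186112496: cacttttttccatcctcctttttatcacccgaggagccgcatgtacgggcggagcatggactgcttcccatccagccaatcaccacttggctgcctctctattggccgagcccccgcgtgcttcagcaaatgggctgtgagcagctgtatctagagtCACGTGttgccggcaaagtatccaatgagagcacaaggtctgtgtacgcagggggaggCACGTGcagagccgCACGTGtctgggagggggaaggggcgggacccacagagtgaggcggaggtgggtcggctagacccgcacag
Per2, chr9:99496944-99497243: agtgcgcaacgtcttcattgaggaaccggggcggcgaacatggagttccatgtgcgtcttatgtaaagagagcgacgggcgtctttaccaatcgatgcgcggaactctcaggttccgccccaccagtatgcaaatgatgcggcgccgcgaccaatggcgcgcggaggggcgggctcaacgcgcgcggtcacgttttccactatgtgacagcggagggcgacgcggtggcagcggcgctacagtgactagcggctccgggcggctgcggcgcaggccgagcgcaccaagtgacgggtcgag
The Ciart window holds 3 matches and the Per2 window 0, and 19 of all windows (0.057%) hold 3 or more. A match is a description of the letters and not a site in use. Only the exact letters CACGTG were searched, so 0 matches does not mean that a window lacks a variant of the motif.

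Glucocorticoid-induced and immediate early genes followed the rat too. Of 23 stress and immediate early genes, 7 were called between rats, and 0 had an unadjusted p under 0.05 between sides. The background was 1.86% of all genes tested and 58 of the 1273 genes with a symbol. This list, too, was chosen with earlier results of these data known. Fkbp5, a chaperone partner of the glucocorticoid receptor induced by it, had 26.8 to 155 CPM (median 57.8) in left and 32.9 to 142 CPM (median 63.0) in right CBs. Its sides differed by 1.23-fold at most, against a span of 4.99-fold between SHR and 2.30-fold between WKY rats (edgeR adjusted p for rat = 1.52e-10; side log2 fold change -0.01, 95% interval -0.11 to 0.08). SHR rat 33 was highest and SHR rat 30 lowest on both sides. Tsc22d3, the glucocorticoid-induced leucine zipper gene, averaged 231 CPM left and 236 CPM right, and its edgeR adjusted p for rat was 9.25e-08.

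Ccn1, a matrix-associated immediate early gene, had the lowest p of all named genes between rats (edgeR adjusted p = 5.88e-12). It had 37.3 to 408 CPM (median 76.2) in left and 35.5 to 543 CPM (median 84.7) in right CBs, with SHR rat 30 highest on both sides and SHR rat 36 lowest on both. Its side log2 fold change was -0.04 (95% interval -0.17 to 0.09). Jun, a subunit of the AP-1 factor, Btg2, an antiproliferative early gene, and Errfi1, a feedback inhibitor of EGFR signalling, were called as well. Fmo2, a flavin monooxygenase gene, was the other gene named by the rule (28.0 to 146 CPM left, 38.4 to 135 CPM right; edgeR adjusted p for rat = 7.61e-10). Of 17 fibroblast and matrix genes 5 were called between rats, with the same background of 1.86% of all genes and 58 of the 1273 with a symbol.

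**Figure D5:**
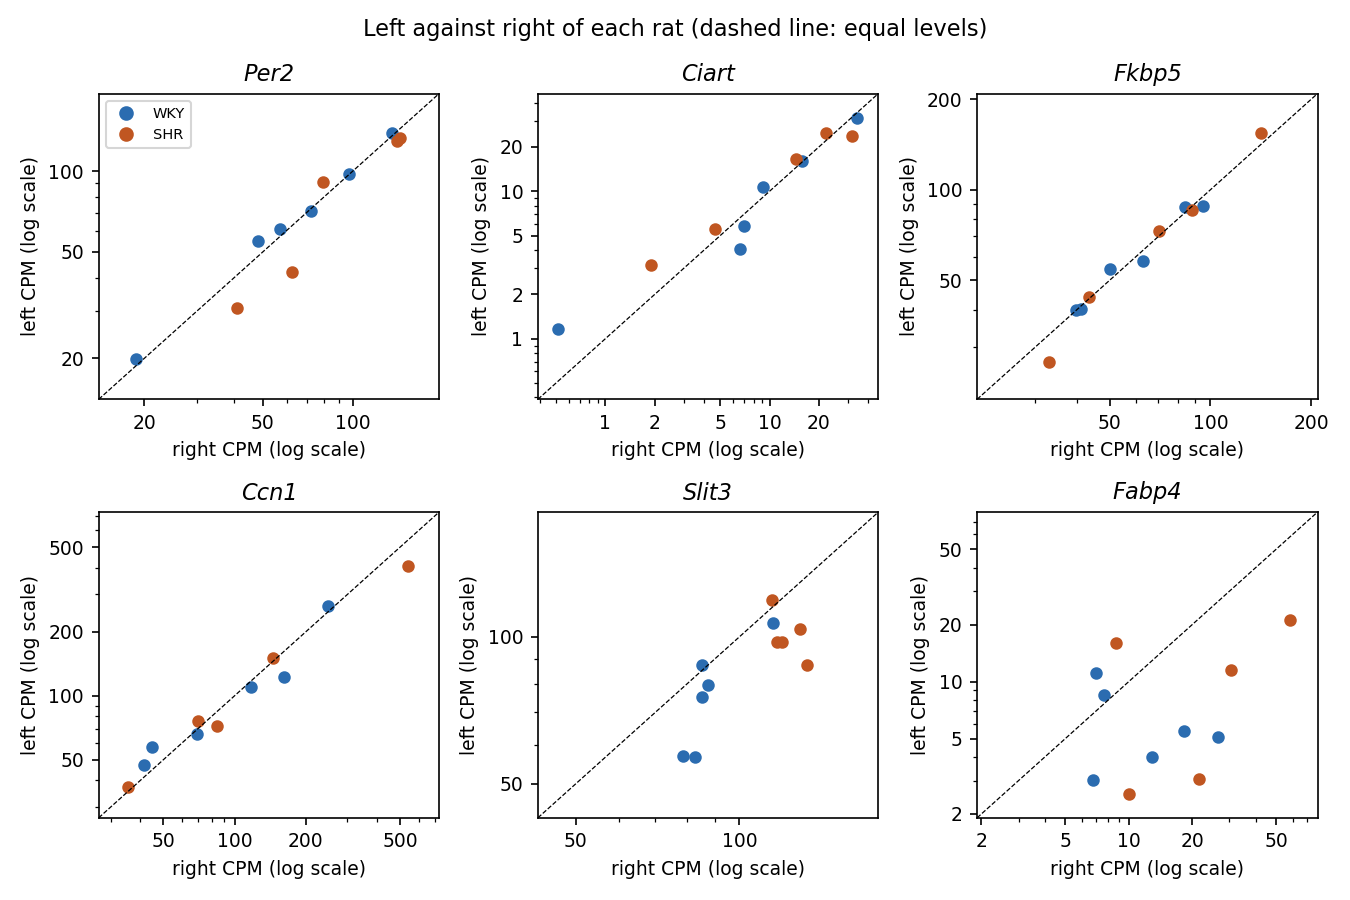
Left against right CPM of each rat on log axes for Per2, Ciart, Fkbp5 and Ccn1, called between rats, and for Slit3 and Fabp4, which were not (blue, WKY; orange, SHR; dashed line, equal levels). The first 4 genes lie along the line over a wide span, with Per2 from 19.8 to 139 CPM in left CBs, while 8 of 11 rats lie below the line for Fabp4.

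Among genes with a symbol, those whose sides differed most from rat to rat were Tg, Adipoq, Pmp2, Dhrs7c and Thsd7b, all of low level in most libraries. The SD of the left minus right log2 CPM over 11 rats was 2.73 for Tg and 1.85 for Adipoq, against a median of 0.250 over all genes. Tg was 219 CPM right and 4.40 CPM left in SHR rat 30, but 0.696 right and 10.7 left in WKY rat 32. For Pmp2, a myelin protein of peripheral nerve, the SD was 1.75, with 1.16 to 21.6 CPM in left and 1.05 to 12.9 CPM in right CBs. Dhrs7c, a gene of striated muscle, had an SD of 1.68 and Thsd7b one of 1.51. The side log2 fold changes of these 5 genes had 95% intervals that included 0.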

How the data were processed

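RNA from the left and right CB was sequenced from polyadenylated libraries (a stranded mRNA kit, per the labels). The authors used STAR to align reads and featureCounts to count them per gene, and the deposited values are raw counts for 32623 Ensembl genes, with no normalization. Versions, build, annotation, strand and multi-mapping settings are not given in the sources used here, so reads of near-identical or antisense genes may be shared. Columns were matched to libraries by the codes in the sample labels.

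The 14254 genes whose normalized counts averaged above 10 were tested in R 4.3.3 with edgeR 4.0.16 (TMM, robust quasi-likelihood F-test) on the 22 libraries, with rat and side as terms and Benjamini-Hochberg adjustment at 0.05. The interaction added side by strain, and rats within strain were tested together after strain and side. DESeq2 1.42.0 and limma 3.58.1 were alternatives. CPM values are TMM-normalized, log2 CPM used a prior count of 2, and intervals are 95% from edgeR. Single genes and library features were tested by an exact two-sided sign-flip permutation over 11 rats. Pairs come from one animal: the correlation of the sides' deviations from their group means had a median of 0.117 (-0.05 to 0.256), above 0.1 in 6 of 11 rats. The left and right libraries of no rat agreed within sampling noise (chi-square per degree of freedom of at least 4.97). Totals were alike between sides, so depth limits low genes on both.

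On simulated counts for 14254 genes with the rat block, edgeR recovered 77% of 100 genes changed 1.5-fold between sides and 89% of 100 changed 2-fold, with 6 false calls, and called 0 with no change simulated. DESeq2 made 10 false calls in that simulation and called 1 gene with no change simulated, and limma voom made 7 and called 2. Both sets of changed genes were in the same simulated counts, and each gene was drawn independently of the others. The shares recovered therefore need not hold for a few isolated changes or for genes that vary together.

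Symbols came from the study's table of genes higher in SHR than WKY (1273 identifiers), so lists hold only such genes and 3 receptors, and say nothing independent of strain. These 3, Glp1r, Insr and Gipr, were identified by the strain values of a DESeq2 fit, 1 identifier each. The RefSeq gene table matched 0 identifiers and gave no names. Promoter sequences and their GRCr8 positions came from a separate RefSeq table, matched by symbol. Members, lists and named genes were chosen with earlier results of these data known. The named genes were, with a symbol, the 5 of lowest side p in each direction, the lowest p of each of 18 lists, the 3 of most counts in the receptor, channel and glomus lists, 4 metabolic receptors, the 5 of widest side SD and the 5 of lowest p between rats. The authors' own fold changes and p-values were not used as results. Figures were made with matplotlib 3.10.9.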

Additional observations from a re-analysis of the deposited data

Results flagged for a closer look

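Left minus right log2 CPM was screened for a single rat far from the others of its strain, in 92 sets of 5 or 6 rats, and 2 sets (2.17%) were marked. Chance marks about 1 in 20 such sets. For Agtr2, WKY rat 36 had a difference of 0.99 (178 CPM left, 89.5 CPM right), where the other 5 WKY rats lay between -0.43 and -0.22. For Lag3, a checkpoint receptor of T cells, SHR rat 36 had 1.99 (3.92 CPM left, 0.844 CPM right), where the other 4 SHR lay between 0.17 and 0.48.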

How the results depend on the processing

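The count of genes called between sides was 0 under every alternative but the DESeq2 test, which called 1 (Cnn1, adjusted p = 0.0182). With no replicate block, that is with strain and side alone in place of the pairing by rat, edgeR called 0 genes and had 707 at an unadjusted p under 0.05, and the smooth muscle median was -0.17. The random block in voom (942) and voom with quality weights (925) called 0 too. Leaving out each rat in turn gave 0 genes called each time, with 697 to 1094 at an unadjusted p under 0.05, and the interaction gave 0 genes under every alternative. The smooth muscle median ran from -0.25 to -0.16 as each rat was left out, was -0.13 with SHR rat 34 added (10 of 11 members lower), and -0.21 without SHR rats 30 and 37 (10 of 11), an alternative chosen after seeing the data. Genes called between rats numbered 974 with DESeq2, 466 with no filter on the mean count, 46 with SHR rat 34 added, 157 without SHR rats 30 and 37, and 170 to 316 as each rat was left out, where 170 was without WKY rat 34. Of the 265 main calls, 265 were among those of DESeq2 and 41 among those with SHR rat 34. The right library of SHR rat 34 had 7983 CPM of Tg and 3.90 CPM of Chgb, against its tissue label. Results with that rat added therefore need not compare a left with a right CB. The cause of these shifts was not tested.

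Several single genes changed direction. In SHR rat 34 itself, Agtr2 had 494 CPM left and 0.252 CPM right, and Ryr2 119 CPM left and 0 CPM right. With SHR rat 34 added, the left minus right log2 CPM was 0.0014 for Hrh3, 0.81 for Agtr2, 0.10 for Insr, 0.58 for Ryr2, -0.15 for Pmp2, 0.094 for Ccn1, 0.059 for Fmo2 and 0.0016 for Per2, and the sign-flip p of Slit3 rose to 0.989. Without SHR rats 30 and 37 it was -0.061 for Pmp2, 0.015 for Fkbp5 and 0.0086 for Fmo2. Leaving out each rat gave -0.13 to 0.017 for Agtr2, -0.071 to 0.0046 for Ccn1, -0.033 to 0.0092 for Fkbp5, -0.043 to 0.043 for Kcnh2, -0.0010 to 0.21 for Mc4r and -0.0062 to 0.057 for Sstr1. Hrh3 missed an exact sign-flip p of 0.05 in 8 of 11 omissions, Prph in 7 and Klhl38 in 4. Cnn1 kept its direction in all of them, with exact sign-flip p-values from 0.00195 to 0.00781, but it had been picked for its low p in the same rats. Depth limits genes of few counts, such as Glp1r in SHR and Ankle1.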
